A study of Mus musculus with 29 samples.

Results

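The 10 genes described here encode the main parts of MHC antigen presentation in the mouse: the class I heavy chains H2-K1 and H2-D1, their partner B2m, the peptide transporter subunit Tap1, the class I regulator Nlrc5, the class II chains H2-Aa, H2-Ab1 and H2-Eb1, the invariant chain Cd74, and the class II regulator Ciita. They were chosen by name, and all 10 were found by Ensembl identifier among the 38924 genes of the count table. Bone marrow of young C57BL/6 mice was sorted into long-term haematopoietic stem cells (LT-HSC), short-term haematopoietic stem cells (ST-HSC) and 2 kinds of multipotent progenitor, MPP3 and MPP4, and profiled by RNA-seq. There were 4 LT-HSC, 3 ST-HSC, 3 MPP3 and 4 MPP4 libraries from control mice, and 3 LT-HSC, 4 ST-HSC, 4 MPP3 and 4 MPP4 libraries from Dnmt3a mutant mice. Dnmt3a encodes a DNA methyltransferase, with the mutant allele not given in the sources used here. All 8 groups, controls included, came from mice 6 weeks after pIpC; this synthetic double-stranded RNA serves to induce Mx1-Cre, and it triggers an interferon response of its own. No group without pIpC was analysed here. The design text counts 3 mutant MPP3 libraries and the sample list holds 4, all of which were used. The titles of mutant ST-HSC libraries name Dnmt3a without calling it mutant. Nothing in the labels says that replicates are separate animals, so p-values cover only the variation among these libraries, part or all of which may be technical.

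MHC class I molecules sit on nearly all nucleated cells and show peptides made inside the cell to CD8 T cells; a heavy chain such as H2-K1 or H2-D1 pairs with B2m and is loaded with peptides that the Tap1 and Tap2 transporter moves into the endoplasmic reticulum. MHC class II molecules show peptides from endocytosed proteins to CD4 T cells, and are known from B cells, dendritic cells and macrophages, with some expression on haematopoietic progenitors. The invariant chain Cd74 escorts new class II dimers and fills their groove until the peptide is exchanged. Nlrc5 and Ciita are related coactivators that bind no DNA themselves: they are recruited to promoters by factors that sit on the S, X and Y boxes, Nlrc5 mainly at class I and Ciita at class II genes, and interferon raises both.

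Elements of the kind through which these coactivators work were searched for in the promoters of members with a matched start-site window. They are shown because class I and class II members differed in how their levels varied, while some members of each class held the ordered pair below. Of the boxes named above, only a part of the X box and the core of the Y box were searched. A start-site window was matched in RefSeq (GRCm38.p6; 27025 genes, 250 bases before to 50 bases after the start) for 6 of the 10 members, H2-K1, H2-D1, B2m, Tap1, H2-Aa and H2-Eb1. The 250 bases before the start were searched for an X2 half-site, TGACG or TGATG, the kind of site that CREB-family factors bind. It had to be followed after 10 to 30 bases by ATTGG, the core of the Y box bound by NF-Y. Members were searched for this pair on the gene's own strand, and all windows on either strand. In the stretches that follow, the X2 half-site and the Y box are in capitals, 5′ to 3′ on the gene's own strand.
H2-K1: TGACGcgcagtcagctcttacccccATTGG
H2-D1: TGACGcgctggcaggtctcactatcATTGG
B2m: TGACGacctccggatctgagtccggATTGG
H2-Aa: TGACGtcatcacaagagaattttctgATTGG
H2-Eb1: TGATGctggactcctttgatgctgATTGG
The H2-K1 stretch lies at chr17:34000359-34000388 on the minus strand, H2-D1 at chr17:35262993-35263022 on the plus strand (upstream of the RefSeq start, with all 30 bases in annotated exons of GENCODE M21), B2m at chr2:122147609-122147638 on the plus strand, H2-Aa at chr17:34287867-34287897 on the minus strand and H2-Eb1 at chr17:34305784-34305812 on the plus strand. The 2 boxes are 20 bases apart in H2-K1, H2-D1 and B2m, 21 in H2-Aa and 19 in H2-Eb1. H2-D1 and H2-Eb1 each hold a second, overlapping TGATG 3 bases upstream of the half-site shown, at a distance of 23 and 22 bases from the Y box. This ordered pair was found in 1.68% of all 27025 promoter windows, whereas 34.5% held a Y box core and 47.4% an X2 half-site alone. Tap1 had no such pair in its window, which says only that these letters are not there.

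The 150 bases before the start are given for a class I and a class II gene, with further elements in capitals. In H2-K1 (chr17:34000348-34000497, minus strand) the first run of capitals is an NF-kB element and the second an interferon element, TTTCACTTC, both upstream of the pair; in H2-Aa (chr17:34287824-34287973, minus strand) the run of capitals also holds a TGACG on the other strand, which overlaps the half-site, and CATCA, which is TGATG read on the other strand and overlaps that element but not the half-site.
H2-K1: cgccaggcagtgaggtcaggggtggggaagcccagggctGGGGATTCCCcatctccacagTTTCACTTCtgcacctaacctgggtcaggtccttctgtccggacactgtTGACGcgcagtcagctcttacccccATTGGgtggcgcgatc
H2-Aa: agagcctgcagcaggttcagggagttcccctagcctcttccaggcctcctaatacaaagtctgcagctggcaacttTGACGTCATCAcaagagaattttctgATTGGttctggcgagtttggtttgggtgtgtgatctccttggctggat
Among the 6 matched members the NF-kB and the interferon element were found in H2-K1 and H2-D1 only. They were present in 0.0814% and 0.429% of all promoter windows.

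Library totals lay between 6133994 and 10374672 counts (median 8154515). A count of 0, read with a floor of 3 counts, therefore allows up to 0.288 to 0.564 CPM (counts relative to TMM-scaled library totals); such floors cover counting error only. Slamf1, which marks LT-HSC, had 14.2 to 54.1 CPM in LT-HSC and at most 3.52 CPM in ST-HSC, MPP3 and MPP4, except for 406 CPM in mutant ST-HSC replicate 2. Some libraries stood apart from their group by markers of other cells. In control LT-HSC replicates 1, 2 and 3 the summed level of 11 neutrophil markers was 12071, 4101 and 1793 CPM against 105 CPM in replicate 4. The sum of 10 erythroid markers was 28593, 5502 and 8537 CPM against 423 CPM in replicate 4 and 278 to 744 CPM in mutant LT-HSC. Control ST-HSC replicate 1 held 3005 CPM of 7 antibody-secreting cell markers against 23.2 and 77.6 CPM in the others. These 4 libraries and mutant ST-HSC replicate 2 are left out in alternative values given beside the results. MPP3 libraries of both genotypes held 3549 to 38238 CPM of the antibody-secreting cell markers, of which Ighm and Igkc were the highest, while MPP4 libraries held 215 to 369 CPM.

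The class I genes H2-K1, H2-D1 and B2m were abundant and even across all 8 groups. The class II members varied more within groups than any class I member, and Tap1 and Nlrc5 lay among them in level. Per kilobase of exon, the median level over the 29 libraries was 1736 CPM for B2m, 335 for H2-K1, 169.9 for H2-D1, 144 for Cd74, 29.2 for H2-Ab1, 16.2 for Tap1, 13.8 for H2-Aa, 10.7 for H2-Eb1, 9.33 for Nlrc5 and 0.344 for Ciita. The SD of the log2 level within groups was 0.23 to 0.29 for B2m, H2-K1 and H2-D1, 0.31 for Nlrc5 and 0.38 for Tap1. It was 0.62 for H2-Eb1, 0.73 for H2-Ab1, 0.86 for H2-Aa, 0.90 for Cd74 and 1.49 for Ciita, against a median of 0.65 over the 15915 genes that passed the filter on low counts. All 10 members passed it. The highest group mean exceeded the lowest by 1.3-fold for H2-K1, 1.14-fold for H2-D1, 1.27-fold for B2m, 1.49-fold for Tap1 and 1.92-fold for Nlrc5. The same ratio was 3.31 for H2-Aa, 3.81 for H2-Ab1, 3.82 for H2-Eb1, 6.98 for Cd74 and 5.65 for Ciita. When the 8 groups were ordered by mean, every pair of neighbouring groups overlapped for each of the 10 genes. Neighbours in such an order are the groups least likely to separate, and this overlap was not counted over all genes. Groups further apart could separate, as mutant MPP3 did from the other mutant populations for Cd74.

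**Figure D1:**
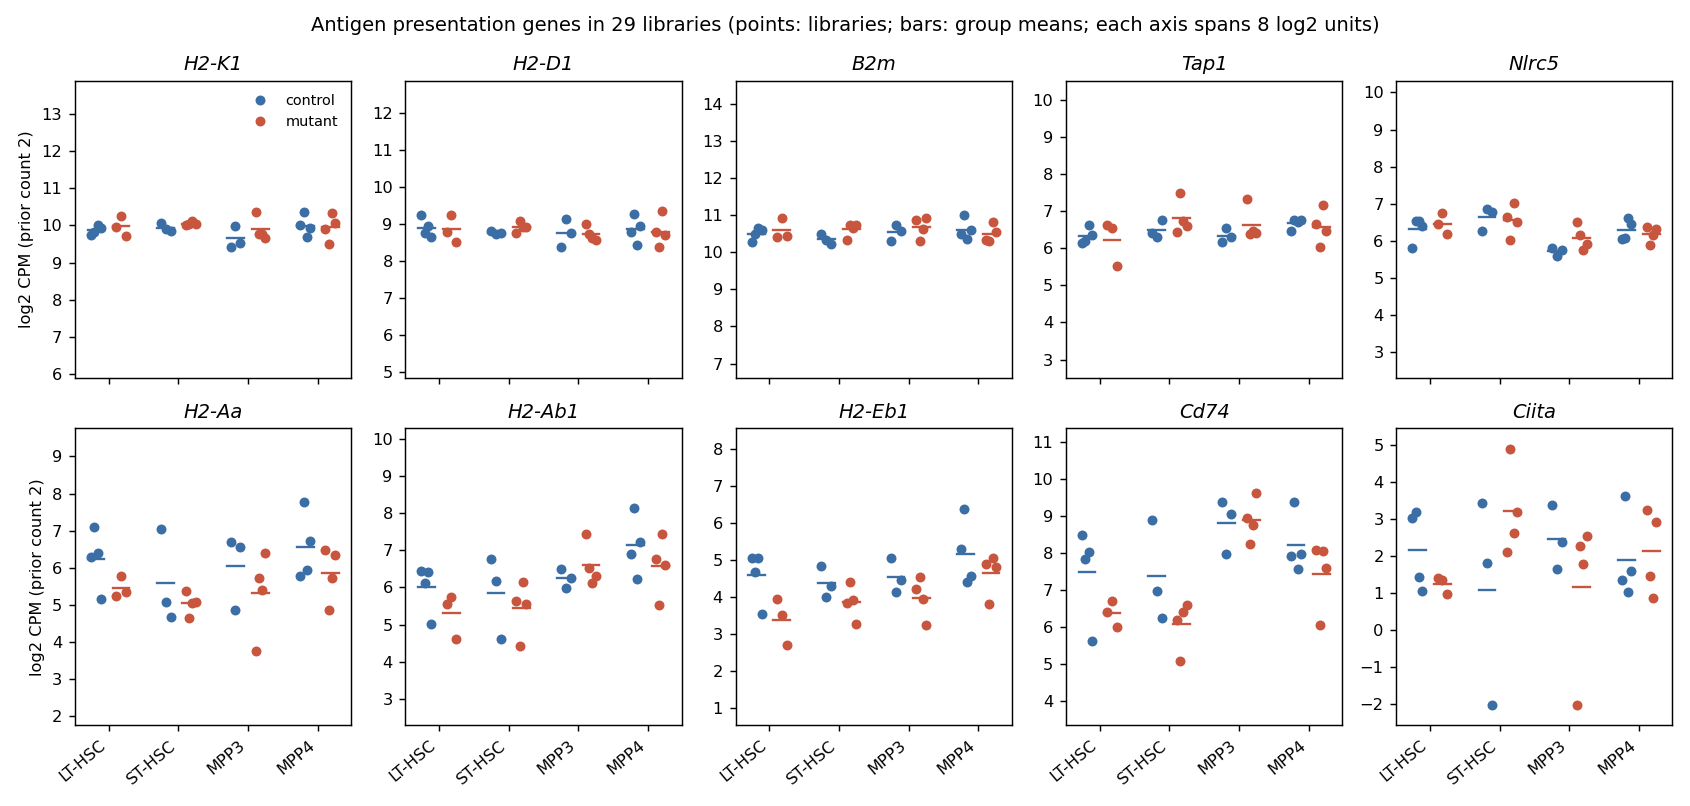
Level of each of the 10 genes in each of the 29 libraries, as log2 CPM with a prior count of 2 on the vertical axes, which all span 8 log2 units; points are libraries (control blue, mutant red), bars are group means, and populations run along the horizontal axes. The class I genes H2-K1, H2-D1 and B2m stay on nearly 1 line across populations, while Cd74 is highest in MPP3 and Ciita spreads widely, with 0 counts in 2 libraries.

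H2-K1 (ENSMUSG00000061232, chr17:33996017-34000347, minus strand), a classical heavy chain, had 853, 899, 1032 and 983 CPM in control LT-HSC, 1068, 956 and 931 in control ST-HSC, 684, 1022.5 and 739 in control MPP3 and 1039.7, 1311, 819 and 969 in control MPP4. In mutant cells it had 997, 1221 and 845 CPM in LT-HSC, 1038, 1051, 1105 and 1044 in ST-HSC, 1322, 868, 880.2 and 806 in MPP3 and 955, 730.4, 1297 and 1063 in MPP4. The groups overlapped, and no population was set apart. H2-D1 (ENSMUSG00000073411, chr17:35262730-35267499, plus strand), the other classical heavy chain of this strain, ran from 329.6 CPM in mutant MPP4 replicate 2 to 647 in mutant MPP4 replicate 3, so its whole range fell within 1 group. Of the 50-base stretches of these transcripts, 6.9% in H2-K1 and 13.9% in H2-D1 also occur in other genes, largely each other and H2-Q genes, so the split of reads between them is uncertain. The ratio of H2-D1 to H2-K1 counts ran from 0.383 to 0.712.

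B2m (ENSMUSG00000060802, chr2:122147686-122153083, plus strand), the light chain shared by all class I molecules, had the highest level of the members. It ran from 1198 CPM in control ST-HSC replicate 3 to 2061 CPM in control MPP4 replicate 2, with a median of 1493. Tap1 (ENSMUSG00000037321, chr17:34187553-34197225, plus strand) ran from 46.1 CPM in mutant LT-HSC replicate 3 to 179 CPM in mutant ST-HSC replicate 2. Tap1 shares 212 exon bases with Psmb9 on the opposite strand, with the use of strand in counting not given in the sources used here. Each extreme of B2m and Tap1 was a single library of a group whose other libraries lay nearer the median.

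Nlrc5 (ENSMUSG00000074151, chr8:94434356-94527272, plus strand), the class I coactivator, had the lowest levels of any group in control MPP3. Its levels there were 55.9, 48.1 and 53.4 CPM, against 76.2, 117 and 109 CPM in control ST-HSC, 55.2, 92.5, 91.9 and 84.8 in control LT-HSC and 65.4, 66.6, 97.7 and 87.7 in control MPP4. Control MPP3 did not overlap with control ST-HSC or MPP4. How many of all genes separate such small groups was not counted, here or for the genes below, so separation alone is a description. The difference of MPP3 from ST-HSC was -0.95 ± 0.25 (SE, log2 scale; edgeR quasi-likelihood test, adjusted p = 0.0549), just short of the threshold of 0.05. That of MPP4 from MPP3 was 0.59 ± 0.24 (adjusted p = 0.312). Without the libraries that stand apart, without control LT-HSC replicate 1 or control ST-HSC replicate 1 alone, with the prefix of the column headers as a term, or with DESeq2, the MPP3 difference from ST-HSC passed, and Nlrc5 was then 1 of 10 members called. Over all genes, DESeq2 called 746 there and the fit without the libraries that stand apart 454, against 302 in the main fit. With 1 library left out in turn, 57 to 401 genes were called, and the total with the prefix term is not given here. The MPP3 difference from ST-HSC was -0.75 and -1.10 within the 2 header prefixes. In mutant cells Nlrc5 had 91.4, 70.9, 53.4 and 59.7 CPM in MPP3 and 99.9, 65.2, 129 and 90.6 CPM in ST-HSC. There the groups overlapped, with a difference of -0.49 ± 0.24 (adjusted p = 0.281).

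Among control populations, none of the 10 members passed the test of any difference (edgeR, adjusted p under 0.05), which 5.72% of 14937 genes did. Nlrc5 came nearest (adjusted p = 0.113, edgeR). It was the single member with an unadjusted p under 0.05, which 19.2% of all genes had (2861 of 14937). DESeq2 called 1608 genes in that test, with H2-Ab1 as the 1 member among them. H2-Ab1 also passed with the number in the sample descriptions as a term, a fit whose total of genes called is not given here. In the 6 pairwise comparisons of control populations edgeR likewise called 0 of 10 members. The share of all genes called there was 0.174% for ST-HSC against LT-HSC, 1.46% for MPP3 against LT-HSC, 4.2% for MPP4 against LT-HSC, 2.02% for MPP3 against ST-HSC, 1.66% for MPP4 against ST-HSC and 1.14% for MPP4 against MPP3. For H2-K1, H2-D1 and B2m every control difference lay between -0.28 and 0.34 on the log2 scale, and for these genes every mutant difference lay between -0.19 and 0.12. The 95% interval of the H2-K1 difference between control MPP3 and LT-HSC ran from -0.61 to 0.20, so a change of up to that size cannot be told from none at this number of libraries.

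In mutant populations 1 of the 10 members, Cd74, passed the test of any difference (adjusted p = 0.000424), against 6.28% of 14766 genes. Cd74 (ENSMUSG00000024610, chr18:60803848-60812652, plus strand) had 488, 305, 434 and 790.0 CPM in mutant MPP3. It had 85.2, 105 and 64.4 CPM in mutant LT-HSC, 73.4, 33.8, 84.8 and 96.9 CPM in mutant ST-HSC and 269.5, 66.2, 266 and 191 CPM in mutant MPP4. Every mutant MPP3 library was above every mutant library of the other 3 populations. Cd74 was 5.85-fold higher in MPP3 than in LT-HSC (log2 difference 2.55 ± 0.45 SE, 95% interval 1.60 to 3.5, adjusted p = 0.00404, n = 4 and 3, edgeR quasi-likelihood), and it was the 1 member of 10 called there, where 3.09% of genes were. Against ST-HSC it was 6.91-fold higher (2.79 ± 0.41, 95% interval 1.93 to 3.65, adjusted p = 0.000791, n = 4 and 4), again the 1 member of 10, with 4.4% of genes called. Without mutant ST-HSC replicate 2 the difference from ST-HSC was 2.57 (adjusted p = 0.00202), and within the 2 header prefixes it was 3.55 and 2.09. In bulk libraries such as these, fewer cells of a type and less RNA per cell cannot be told apart.

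The remaining mutant comparisons of Cd74 did not pass. MPP4 exceeded ST-HSC by 1.46 ± 0.39 (adjusted p = 0.0599) and LT-HSC by 1.22 ± 0.43 (adjusted p = 0.212), and it lay below MPP3 by -1.33 ± 0.39 (adjusted p = 0.128). No other member passed either, with 0.298% of genes called for ST-HSC against LT-HSC, 2.17% for MPP4 against LT-HSC, 2.33% for MPP4 against ST-HSC and 1.37% for MPP4 against MPP3. Leaving out mutant MPP4 replicate 2, which had 66.2 CPM, Cd74 passed in MPP4 against both LT-HSC and ST-HSC, and against ST-HSC also without mutant MPP3 replicate 2 or 4. In control cells Cd74 had 661, 253 and 530.1 CPM in MPP3, 355, 229.6, 262 and 48.7 in LT-HSC, 473, 125 and 75.2 in ST-HSC and 243, 668, 190.1 and 250.2 in MPP4. Control MPP3 overlapped with each of the other control groups, and its difference from LT-HSC was 1.12 ± 0.77 (adjusted p = 0.61). Whether the MPP3 difference itself differed between genotypes is part of the test of the mutant effect between populations, in which no member passed.

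**Figure D2:**
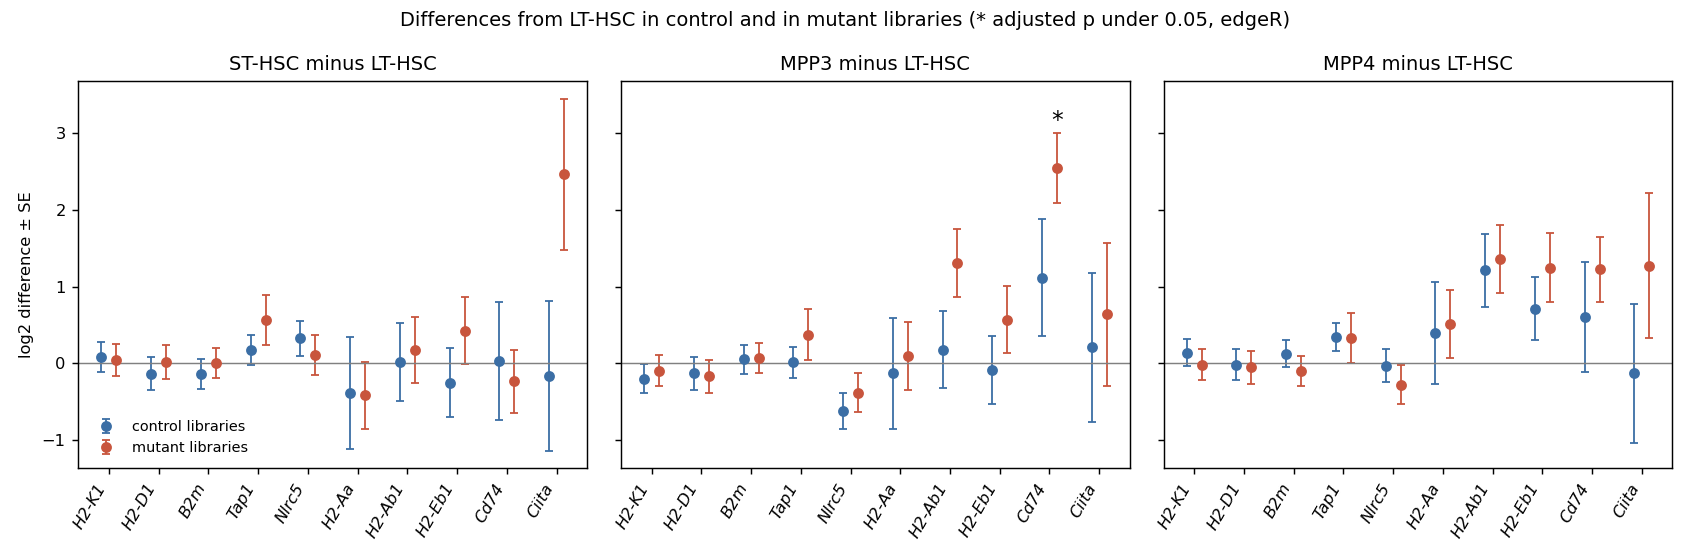
Log2 difference of ST-HSC, MPP3 and MPP4 from LT-HSC for each of the 10 genes, in control and mutant libraries, with bars for ± 1 SE of the edgeR fit and an asterisk where the adjusted p is under 0.05. The asterisk stands on Cd74 in mutant MPP3 alone (2.55). H2-K1, H2-D1 and B2m lie between -0.20 and 0.14, while Nlrc5 reaches -0.62 in control MPP3 and Tap1 0.56 in mutant ST-HSC.

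Markers of some other cell types were, like Cd74, higher in mutant MPP3 than in mutant LT-HSC and ST-HSC. In mutant MPP3 the summed level of 10 B cell markers was 467 to 664 CPM, against 54.8 to 145 CPM in mutant LT-HSC and 89.5 to 447 CPM in mutant ST-HSC, and all 10 had a count in at least 1 MPP3 library. Cd79a, part of the B cell receptor, had 85.9 to 150.2 CPM in mutant MPP3, 1.14 to 3.11 in LT-HSC and 0.188 to 5.59 in ST-HSC. The sum of 15 macrophage and monocyte markers was 346 to 618 CPM in mutant MPP3 against 59.8 to 107 CPM in LT-HSC and 82.0 to 114 CPM in ST-HSC, with all 15 detected in some library of each of these groups. The 7 antibody-secreting cell markers summed to 4589 to 38238 CPM in mutant MPP3 and to 11.4 to 258 CPM in LT-HSC. The 12 dendritic cell markers were closer, at 56.9 to 74.0 CPM in MPP3, 28.2 to 51.7 CPM in LT-HSC and 48.3 to 62.4 CPM in ST-HSC; Cacnb3 was at 0 in every mutant MPP3 library and Cd209a and Batf3 in every mutant LT-HSC library. Neutrophil markers overlapped between mutant MPP3 (67.2 to 640 CPM) and mutant LT-HSC (111 to 493 CPM). Within mutant MPP3, Cd74 was highest in replicate 4 (790 CPM), as were the antibody-secreting cell markers. The B cell markers there summed to 474 CPM and the macrophage and monocyte markers to 378 CPM. Replicate 1 held the most of these 2 sets (664 and 618 CPM), with 488 CPM of Cd74. The part of other cell types in the Cd74 difference was not tested.

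**Figure D3:**
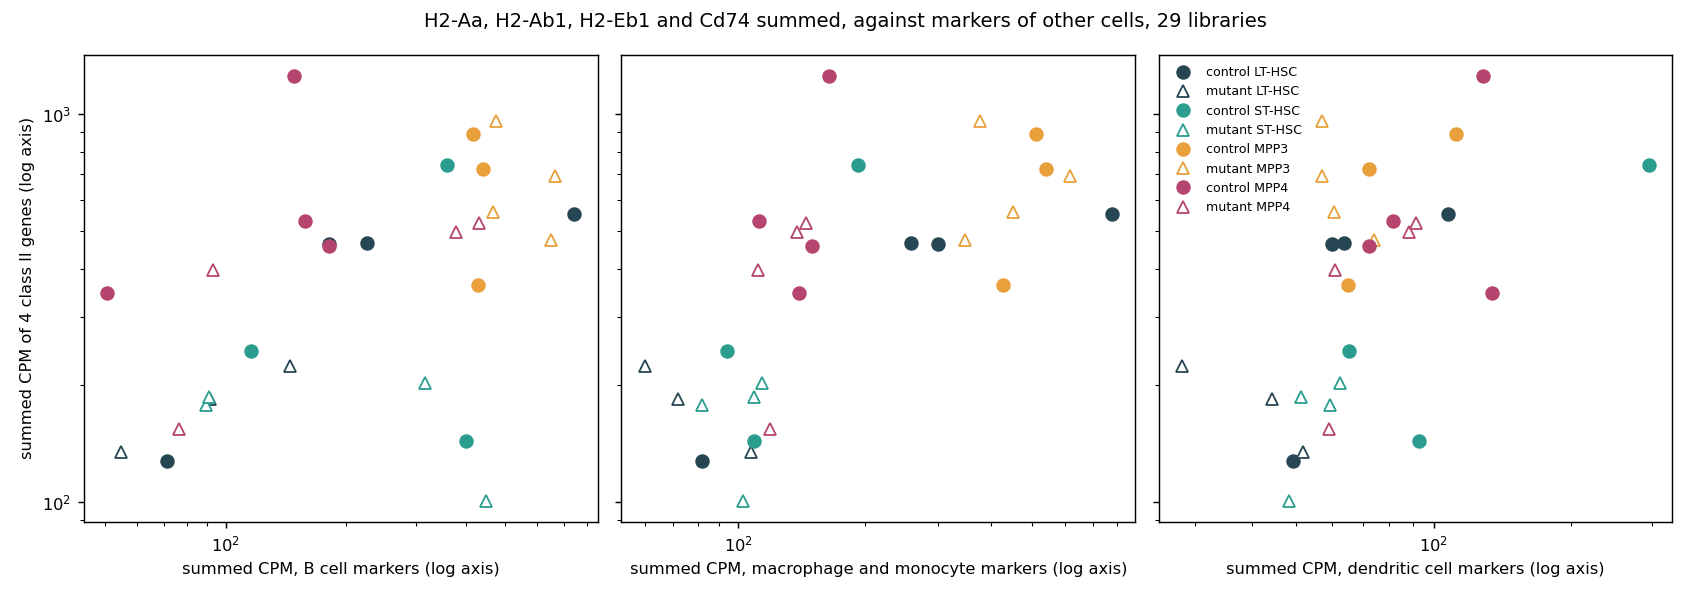
Summed CPM of H2-Aa, H2-Ab1, H2-Eb1 and Cd74 in each of the 29 libraries (vertical, log axis) against the summed CPM of the B cell, macrophage and monocyte, and dendritic cell markers (horizontal, log axes). Colours mark populations, filled circles are control libraries and open triangles are mutant libraries. The MPP3 libraries lie high on both axes in the panels of B cell markers and of macrophage markers, at 346 to 618 CPM of the latter in mutant MPP3.

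H2-Ab1 (ENSMUSG00000073421, chr17:34257689-34269419, plus strand), the beta chain of the I-A molecule, had its highest group means in control MPP4, mutant MPP4 and mutant MPP3. It had 120.1, 285, 74.9 and 150.1 CPM in control MPP4 and 109, 45.9, 173 and 97.3 CPM in mutant MPP4. Its levels were 175, 92.7, 69.2 and 78.4 CPM in mutant MPP3 and 89.3, 63.6 and 76.7 CPM in control MPP3. LT-HSC had 86.6, 70.0, 84.8 and 32.2 CPM in control and 46.5, 53.5 and 24.02 CPM in mutant libraries, and ST-HSC 108, 71.8 and 24.3 CPM and 49.3, 21.2, 70.3 and 46.5 CPM. Mutant MPP3 did not overlap with mutant LT-HSC, a separation that was not counted over all genes. The differences did not pass: 1.31 ± 0.44 for mutant MPP3 against LT-HSC (adjusted p = 0.134), 1.36 ± 0.44 for mutant MPP4 against LT-HSC (adjusted p = 0.15) and 1.21 ± 0.47 for control MPP4 against LT-HSC (adjusted p = 0.218), by edgeR. DESeq2 called H2-Ab1 in each of these 3 comparisons, among 874, 578 and 1061 genes called. With the number in the sample descriptions as a term, H2-Ab1 also passed in all 3. With the header prefix as a term it passed in the 2 mutant ones. How many of all genes passed with these 2 terms is not given here. In the main fits 3.09%, 2.17% and 4.2% of all genes were called in the 3 comparisons. MPP4 libraries held 111 to 164 CPM of the macrophage and monocyte markers. The 10 B cell markers summed to 50.6 to 181 CPM in control MPP4 and to 76.6 to 431 CPM in mutant MPP4. Of these markers, Ms4a1 and Fcmr were at 0 in every mutant MPP4 library. The part of such cells in the H2-Ab1 levels was not tested.

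H2-Aa (ENSMUSG00000036594, chr17:34282744-34287823, minus strand), the alpha chain that pairs with H2-Ab1, ran from 13.2 CPM in mutant MPP3 replicate 1 to 218 CPM in control MPP4 replicate 2. Its median over 29 libraries was 52.5 CPM. The 2 partner chains did not keep a fixed ratio: H2-Aa over H2-Ab1 was 0.82 at the median, 0.0753 in mutant MPP3 replicate 1 and 1.96 in control LT-HSC replicate 2. The library at the low end had 13.2 CPM of H2-Aa beside 175 CPM of H2-Ab1. Cd74 over H2-Ab1 had a median of 2.46; it was 7.39, 3.97 and 6.91 in control MPP3 and 2.79, 3.29, 6.28 and 10.1 in mutant MPP3. H2-Eb1 (ENSMUSG00000060586, chr17:34305867-34316674, plus strand), the beta chain of the I-E molecule, whose alpha chain gene is defective in C57BL/6, ran from 6.29 CPM in mutant LT-HSC replicate 3 to 83.2 CPM in control MPP4 replicate 2.

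Ciita (ENSMUSG00000022504, chr16:10480059-10528418, plus strand), the class II coactivator, had the lowest level of the members. Its counts ran from 0 to 157 per library. It had 7.86, 8.91, 2.46 and 1.83 CPM in control LT-HSC, 2.40, 2.30 and 1.72 in mutant LT-HSC, 10.5, 3.28 and 0 in control ST-HSC and 4.09, 29.5, 5.90 and 8.88 in mutant ST-HSC. MPP3 had 10.2, 2.89 and 4.97 CPM in control and 0, 4.61, 3.22 and 5.61 CPM in mutant libraries, and MPP4 2.32, 11.99, 1.80 and 2.78 CPM and 9.30, 2.51, 1.57 and 7.38 CPM. The 0 counts allow up to 0.477 CPM in control ST-HSC replicate 3 and 0.556 CPM in mutant MPP3 replicate 1. Mutant ST-HSC did not overlap with mutant LT-HSC, a separation not counted over all genes, and the difference did not pass (2.47 ± 0.99, edgeR, adjusted p = 0.506). The highest level, 29.5 CPM, was in mutant ST-HSC replicate 2, the library with 406 CPM of Slamf1. Ciita shares 329 exon bases with Dexi on the opposite strand, with the use of strand in counting unknown here. Mutant ST-HSC replicate 2 had the highest Ciita and the lowest H2-Ab1 (21.2 CPM) and Cd74 (33.8 CPM) of all 29 libraries, while its H2-Eb1, at 21.0 CPM, was near the median of 20.7 CPM.

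Between genotypes, none of the 10 members passed in any population, on the average of the 4 populations, or in the test of whether the mutant effect differed between populations (edgeR quasi-likelihood). Over all genes, 0% were called in LT-HSC, ST-HSC and MPP4, 0.00737% in MPP3 (1 of 13572), 0.0189% on average (3 of 15915) and 0% for the difference between populations. At an unadjusted p under 0.05 there were 407 genes in MPP4, 296 in MPP3, 499 in ST-HSC and 1136 in LT-HSC, of which 0, 0, 1 and 2 were members, and 1196 on average, of which 3 were members. DESeq2 called 5 genes in MPP4, 2 in MPP3, 0 in ST-HSC, 292 in LT-HSC and 111 on average, and no member among them.

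No difference between genotypes was detected for the class I members. On average over populations the mutant minus control difference was 0.11 ± 0.10 (95% interval -0.08 to 0.30) for H2-K1, 0.10 ± 0.09 for B2m, 0.16 ± 0.14 for Tap1 and 0.08 ± 0.12 for Nlrc5. H2-D1 differed by 0.00 ± 0.11 (95% interval -0.22 to 0.22). The intervals of H2-K1 and H2-D1 bound any average difference to 0.30 on the log2 scale in either direction.

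The class II chains and Cd74 were lower on average in mutant libraries by an amount that did not pass the adjusted threshold. The difference was -0.83 ± 0.30 for H2-Aa (adjusted p = 0.447), -0.75 ± 0.22 for H2-Eb1 (adjusted p = 0.243) and -0.93 ± 0.32 for Cd74 (adjusted p = 0.411), all from edgeR. For H2-Ab1 it was -0.35 ± 0.25 and for Ciita -0.15 ± 0.48. In LT-HSC the differences were -0.94 ± 0.37 for H2-Aa, -0.74 ± 0.36 for H2-Ab1, -1.24 ± 0.43 for H2-Eb1, -1.41 ± 0.62 for Cd74 and -1.30 ± 0.69 for Ciita, with adjusted p from 0.454 to 0.674. Levels of H2-Eb1 in LT-HSC were 32.6, 25.4, 33.0 and 11.4 CPM in control and 15.2, 11.2 and 6.29 CPM in mutant libraries, and the lowest control lay among the mutant values. In ST-HSC Cd74 differed by -1.64 ± 0.59 (adjusted p = 0.998, edgeR), and in MPP3 by 0.06 ± 0.35.

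**Figure D4:**
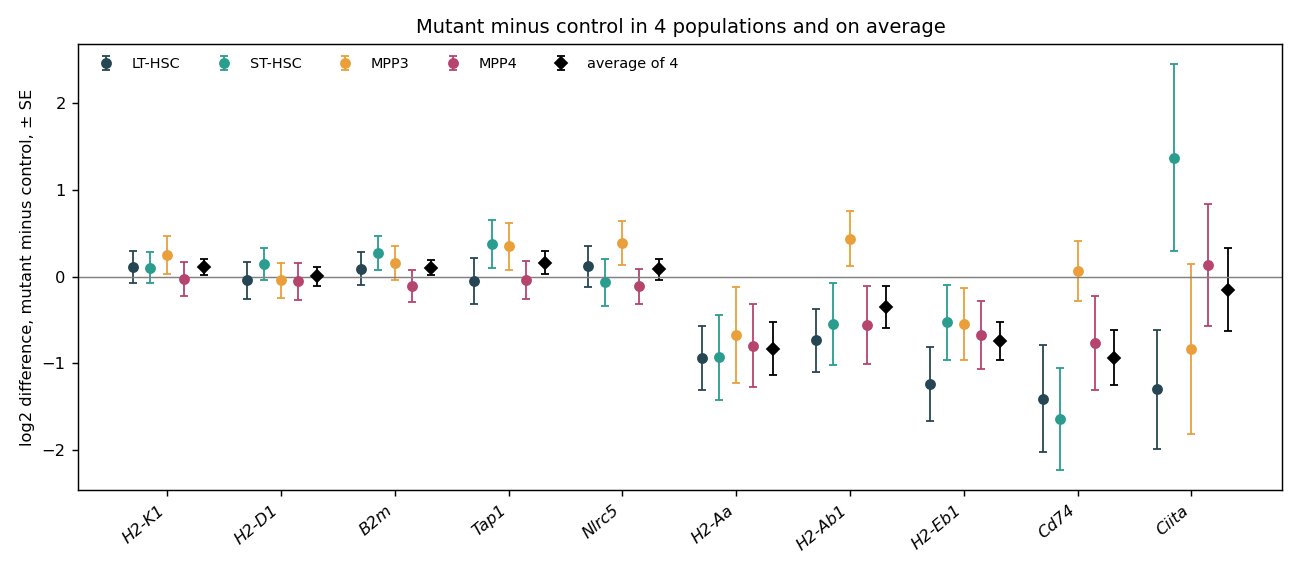
Mutant minus control difference on the log2 scale for each of the 10 genes in LT-HSC, ST-HSC, MPP3, MPP4 and on average over the 4 populations, with bars for ± 1 SE of the edgeR fits. On average class I genes lie between 0.00 and 0.16, H2-Aa, H2-Eb1 and Cd74 lie below 0 on average (-0.83, -0.75 and -0.93), and no adjusted p is under 0.05.

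The control LT-HSC libraries with more class II RNA also held more RNA of markers of other cells. The part of such cells in the difference between genotypes was not tested. The summed level of H2-Aa, H2-Ab1, H2-Eb1 and Cd74 was 552, 462 and 464 CPM in control LT-HSC replicates 1, 2 and 3, 128 CPM in replicate 4, and 185, 224 and 135 CPM in mutant LT-HSC. B cell markers summed to 744, 181 and 225 CPM in those 3 control libraries and to 71.2 CPM in replicate 4, and the macrophage and monocyte markers to 776, 298 and 258 CPM and to 82.0 CPM. In ST-HSC, control replicate 1 had 740.3 CPM of the 4 class II genes against 246 and 144 CPM in the others. Without the 5 libraries that stand apart, the mutant minus control difference in LT-HSC, with 1 control library left, was 0.32 for H2-Aa, 0.37 for H2-Ab1, -0.06 for H2-Eb1 and 0.81 for Cd74. The average over populations was then -0.21 for H2-Aa, 0.11 for H2-Ab1, -0.44 for H2-Eb1 and -0.03 for Cd74. Without control LT-HSC replicate 4 instead, H2-Aa and Cd74 passed in LT-HSC (-1.17, adjusted p = 0.03, and -1.73, adjusted p = 0.000999), among 384 genes called.

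The column headers carry 1 of 2 prefixes, whose meaning the labels do not give. The differences of Cd74, H2-Ab1, H2-Aa and H2-Eb1 were each unlike between the prefixes in some populations. Cd74 in mutant minus control libraries was -1.59 in MPP4, -0.17 in MPP3, -2.28 in ST-HSC and -2.14 in LT-HSC with the first prefix, and 0.05, 0.08, 0.27 and -0.26 with the second. H2-Ab1, in the same order of populations, was -1.38, -0.28, -1.44 and -1.69 with the first and 0.29, 0.86, 1.22 and -0.07 with the second. H2-Aa was -1.10, -0.81, -1.03 and -1.37 with the first and -0.30, -0.98, 0.40 and -0.27 with the second, of the same sign in all but ST-HSC. H2-Eb1 was -1.50, -1.45, -0.29 and -2.15 and then 0.45, 0.08, -0.72 and -0.57, of the same sign in LT-HSC and ST-HSC. These rest on 1 or 2 libraries per group, and the difference between prefixes was not tested. Of the libraries that stand apart, control LT-HSC replicates 1 and 2, control ST-HSC replicate 1 and mutant ST-HSC replicate 2 carry the first prefix. Control LT-HSC replicate 3 carries the second. The control LT-HSC libraries with the first prefix are all among them, so prefix and marker content cannot be told apart there.

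The class I members moved together from library to library, and so did the class II members, with less relation between the 2 sets. Over the 29 libraries, Pearson r of log2 CPM was 0.47 to 0.75 for the 6 pairs among H2-K1, H2-D1, B2m and Tap1. It was 0.51 to 0.78 for the 6 pairs among H2-Aa, H2-Ab1, H2-Eb1 and Cd74, with H2-Ab1 and Cd74 highest at 0.78. Between the sets the 16 pairs gave -0.27 to 0.36. After the group means were subtracted the ranges were 0.50 to 0.79, 0.41 to 0.81 and -0.26 to 0.60. Nlrc5 had r of -0.08 to 0.39 with the 4 class I genes, and Ciita 0.54 with H2-Aa and 0.07 with H2-Ab1. These are descriptions without a test, over libraries that share depth, scaling and the markers of other cells described above.

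**Figure D5:**
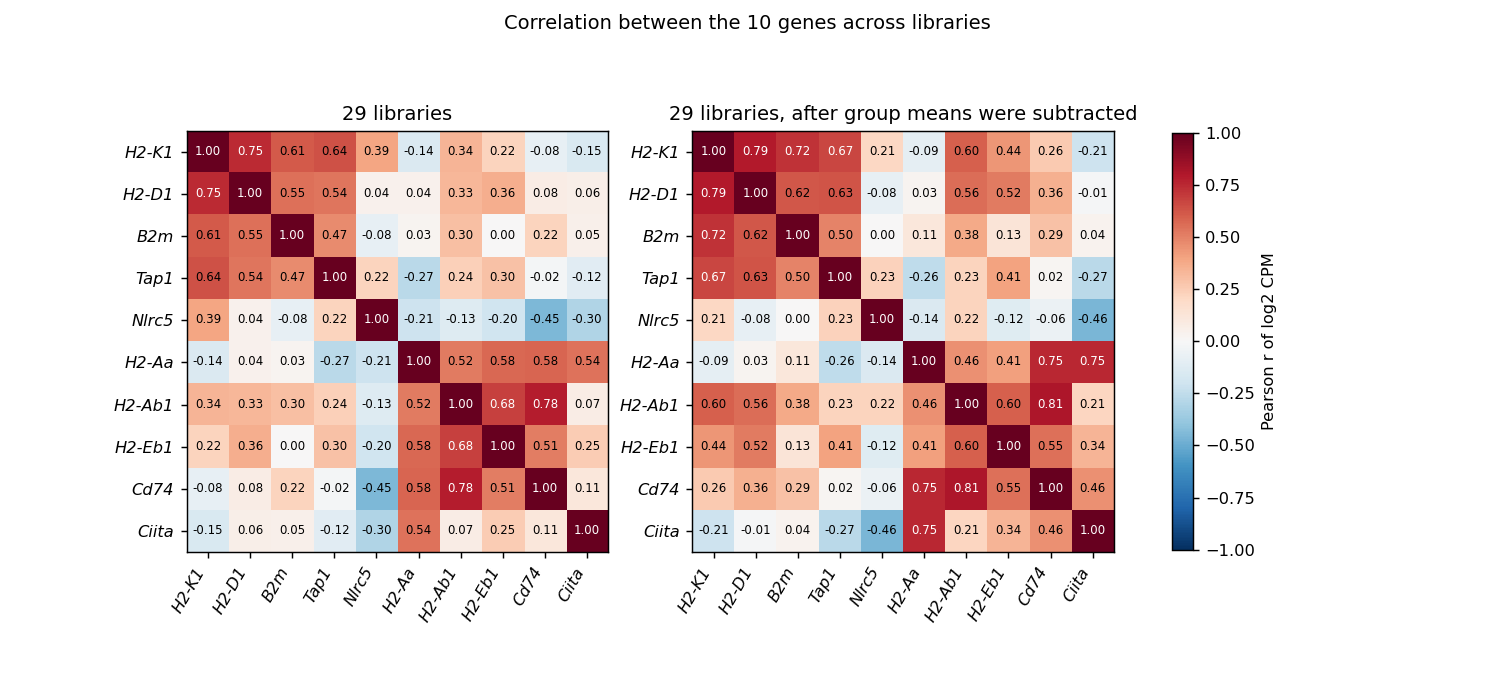
Pearson r of log2 CPM between each pair of the 10 genes, over the 29 libraries and again after subtracting each group's mean, on a colour scale from -1 to 1. Blocks of high values stand among H2-K1, H2-D1, B2m and Tap1 (0.47 to 0.75 over the 29 libraries) and among H2-Aa, H2-Ab1, H2-Eb1 and Cd74 (0.51 to 0.78).

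By the same measure, over 29 libraries, the genes most like Cd74 were Tlr9 (r = 0.874), a receptor for unmethylated CpG DNA, Ifi209 (0.868) and Slamf7 (0.833). H2-Ab1 was most like Mpeg1 (0.817), a pore-forming protein of phagocytes, and Itgal (0.798), an integrin of leukocytes, and H2-Eb1 was most like Cd33 (0.715), Bcl6 (0.70) and Tlr7 (0.697). H2-Aa was most like Ppfia4 (0.731), Gm26740 (0.725) and Naaa (0.684). Nlrc5 was most like H2-Q6 (0.77), a non-classical class I heavy chain. H2-D1 was most like Rpl23 (0.806), a ribosomal protein gene, and Eif1 (0.797), and H2-K1 was most like Mettl7a1 (0.76) and Cxxc5 (0.704). Tap1 was most like Sgsm2 (0.766) and B2m most like Slc35a4 (0.686). Ciita was most like Wapl (0.79).

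Genes of the pathways were taken from fixed lists. Counts and medians over a list include the members that it holds, such as Cd74 among the class II genes. Of the 21 class I heavy chain and class I-like genes, 17 were tested in control libraries; in MPP3 against ST-HSC 14 were lower and 3 higher, with a median difference of -0.70 against -0.04 over all genes, and 2 passed, against 2.02% of all genes. These were the non-classical heavy chains H2-Q4 (-0.94, adjusted p = 0.0432) and H2-Q6 (-0.83, adjusted p = 0.0429), singled out after their values were seen. H2-Q6 had 116, 129 and 133 CPM in control MPP3 and 213, 234 and 223 CPM in control ST-HSC, without overlap. In mutant libraries 13 of 15 were lower in MPP3 than in ST-HSC (median -0.33 against -0.05 over all genes), and 1 passed, against 4.4% of all genes. The H2-Q genes share sequence with each other and with H2-K1 and H2-D1, so each value is uncertain.

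Of the 9 genes of class I peptide loading, all had values above 0 for control MPP3 against LT-HSC, 2 of them past the threshold, as were 1.46% of all genes, with a median of 0.43 against -0.02 over all genes. Calr, the chaperone that holds empty class I molecules in the endoplasmic reticulum, had 486, 677 and 597 CPM in control MPP3 and 258, 215, 201 and 159 CPM in control LT-HSC (1.5 ± 0.23, adjusted p = 0.00158), and the groups did not overlap. The MPP3 libraries also held the antibody-secreting cell markers given above, and their part in this difference was not tested. Among the 5 immunoproteasome genes, Psmb8, a catalytic subunit that trims peptides for class I, rose from 47.3, 26.3 and 31.0 CPM in control ST-HSC to 55.7, 107, 86.8 and 76.9 CPM in control MPP4 (1.21 ± 0.26, adjusted p = 0.0197), again without overlap. The other 4 passed in none of the comparisons of control or mutant populations.

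Of the 13 class II chain and loading genes, 12 were tested. H2-Ob, a subunit of the H2-O molecule that restrains peptide exchange on class II, had 69.2, 98.1, 70.0 and 57.9 CPM in control MPP4 and 27.4, 22.3, 15.8 and 8.46 CPM in control LT-HSC. The groups did not overlap, and H2-Ob was higher in MPP4 by 2.00 ± 0.30 in control (adjusted p = 0.000462) and by 2.01 ± 0.39 in mutant libraries (adjusted p = 0.00497). H2-DMa, a chain of the molecule that catalyses that exchange, passed the test of any difference among control populations (adjusted p = 0.0435), with 93.0, 132, 76.9 and 125 CPM in MPP4 and 41.7, 82.3 and 48.3 CPM in MPP3. In mutant MPP3 against LT-HSC all 12 class II genes were higher (median 0.70 against 0.00 over all genes), of which Cd74 and Ctss, a protease that cuts the invariant chain, passed, against 3.09% of all genes. In mutant against control LT-HSC 11 of 12 were lower (median -0.78 against 0.00), none past the threshold. Both counts include members described above, Cd74 among them, so they are not independent of the results for the members.

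Among the 14 transcription regulators of MHC genes, none passed in control MPP3 or MPP4 against LT-HSC, and 3 rose in mutant MPP3 against LT-HSC, where 3.09% of all genes were called: Irf4 (4.07 ± 0.76), Irf8 (3.94 ± 0.82) and Spi1 (1.37 ± 0.29), all factors of lymphoid or myeloid cells, with adjusted p from 0.00451 to 0.0114. Irf8 had 30.2, 37.5, 49.8 and 60.3 CPM in mutant MPP3 and 5.41, 0.806 and 2.29 CPM in mutant LT-HSC; in control LT-HSC it had 55.3, 15.8, 15.6 and 2.68 CPM, lowest in replicate 4, the replicate with the least neutrophil marker RNA.

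Of the 22 interferon-stimulated genes, 3 fell and 1 rose past the threshold in control MPP3 against LT-HSC, where 1.46% of all genes were called. These were Iigp1, Isg15 and Oasl2, which fell, and Ly6e, which rose; over the list 20 values were below 0 and 2 above (median -0.76 against -0.02 over all genes). Of the 4 control LT-HSC libraries 3 held the neutrophil and erythroid markers given above, and MPP3 held antibody-secreting cell markers. The part of these cells in the differences was not tested. Iigp1, an interferon-induced GTPase, had 3.13, 1.79 and 4.97 CPM in control MPP3 and 19.4, 21.7, 26.7 and 26.9 CPM in control LT-HSC (-2.83 ± 0.46, adjusted p = 0.00242), with no overlap. In mutant libraries 17 of 22 were lower (median -0.57 against 0.00), and Iigp1 fell there too (-2.44 ± 0.47, adjusted p = 0.00543). Oasl2, of the oligoadenylate synthetase family, fell by 1.43 ± 0.32 in control MPP3 (adjusted p = 0.0246). Ly6e, a surface protein that interferon also induces, rose by 1.18 ± 0.26 (adjusted p = 0.0269). H2-K1, H2-D1, B2m and Tap1 differed by -0.20, -0.13, 0.05 and 0.01 in the same comparison, and only Nlrc5 of the class I members was lower with an unadjusted p under 0.05 (-0.62 ± 0.24, adjusted p = 0.235). Of all genes, 13.1% had an unadjusted p under 0.05 there, in either direction.

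Of the 11 interferon receptor and signalling genes, Ifnar2, a chain of the type I interferon receptor, was higher in MPP4 than in LT-HSC by 1.27 ± 0.21 in control (adjusted p = 0.0012) and by 1.13 ± 0.29 in mutant libraries (adjusted p = 0.0427). The costimulatory and inhibitory ligands were lower in control MPP3 than in LT-HSC in 8 of 9 cases (median -0.72), none past the threshold. Cd48, a ligand of lymphocyte receptors and a marker that LT-HSC lack, was higher in mutant MPP3 than in LT-HSC by 5.70 ± 0.90 (adjusted p = 0.00164); it is part of the usual sorting scheme for these populations, and so its difference is no independent result. Between genotypes no gene of any of these 8 lists passed in LT-HSC, ST-HSC, MPP3, MPP4 or on average.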

How the data were processed

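PolyA RNA of sorted bone marrow cells, isolated with the RNeasy Micro kit, was sequenced per the labels' protocols. The deposited values, expected counts per gene, were whole numbers already and needed no rounding. The submitters' processing notes name GRCm38, edgeR 3.5.3, SAMtools 0.1.18, Bowtie2 2.2.0 and RSEM 1.2.12, with roles and order not given in the sources used here. As RSEM divides ambiguous reads among matching genes, the class I heavy chains, which share sequence, are affected most. Symbols and positions came from GENCODE M21 (37607 of 38924 identifiers matched), and promoter sequences from RefSeq (GRCm38.p6).

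Counts were tested with edgeR 4.0.16 in R 4.3.3, with TMM normalisation, a filterByExpr minimum of 10 counts and 15 in total, and the robust quasi-likelihood test, with Benjamini-Hochberg adjustment over all genes tested and a threshold of 0.05. Control populations were compared in 1 fit of the 14 control libraries, mutant populations in 1 fit of the 15 mutant libraries, and genotypes within each population; the average mutant effect and its difference between populations used all 29 libraries. A ± is the SE of a log2 difference, taken from the difference and its F statistic. Log2 CPM used a prior count of 2. The scripts were tested on simulated data. Alternatives used DESeq2 1.42.0, limma 3.58.1 (voom), other scaling and filters, replicate blocks and libraries left out. The groups were read from the titles. The members and lists were chosen with earlier results of these data known. Named were all members, list genes that passed the test over control populations (at most 4 per list) and the 3 genes most like each member, of which some are printed; Ctss, the regulators Irf4, Irf8 and Spi1, Isg15 and the H2-Q genes, named beyond this, were chosen after their values were seen. Same-numbered libraries did not vary together: the correlation of their deviations from group means was -0.175 to 0.0915 over 13 mutant and control pairs with the same title number and -0.152 to 0.175 over 39 pairs with the same number in the description, so no block was used.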

Additional observations from a re-analysis of the deposited data

Results flagged for a closer look

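The members were examined for single libraries far from the rest in 50 groups of 4 libraries, by the share of the group's range that lies between the extreme library and its nearest neighbour, set against Dixon's critical value. This test marks about 1 group in 20 by chance, and it marked 4 of 50. In mutant MPP3 replicate 1, H2-K1 was 1322 CPM against 880.2 CPM in the next library (gap share 0.856) and Tap1 159.6 CPM against 87.9 CPM (0.940). The same library had 13.2 CPM of H2-Aa, the lowest of all 29, and 0 counts of Ciita. In control MPP4 replicate 2, Cd74 was 668 CPM against 250.2 CPM in the next library (0.874) and Ciita 11.99 CPM against 2.78 CPM (0.904). H2-Aa, H2-Ab1, H2-Eb1 and B2m were also at their highest of all 29 libraries there.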

How the results depend on the processing

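The Cd74 differences of mutant MPP3 from LT-HSC and ST-HSC kept their direction and stayed past the threshold in 9 of 9 and 10 of 10 other fits, and each in the 15 fits that left out 1 library; the latter ran from 2.25 to 2.74 and from 2.50 to 2.97. Of the 430 values of single members in mutant against control comparisons, 410 kept their direction and their side of the threshold under other settings, 2 newly passed and 18 changed sign; with 1 library left out it was 538 of 580, with 2 and 40. Members passed between genotypes in 2 of 138 fits. The header prefix term, the spread that is not robust and the fits without 5 libraries were chosen after seeing the data. The cause of each difference between settings was not tested.

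Numbers of genes called, in the order ST-HSC and LT-HSC, MPP3 and LT-HSC, MPP4 and LT-HSC, MPP3 and ST-HSC, MPP4 and ST-HSC, MPP4 and MPP3, were 308, 558, 1061, 746, 606 and 468 in control and 180, 874, 578, 1183, 722 and 480 in mutant libraries with DESeq2, and 1608 and 1532 for any difference, against 854 and 928 with edgeR. Between genotypes DESeq2 called 292 in LT-HSC, 2 in MPP3, 5 in MPP4, 111 on average and 48 for the effect between populations. Control ST-HSC against LT-HSC, with 26 genes called, gave 52 without a filter, 95 with the title number as a block, 15 not robust, 75 with the prefix term, 8 without the 5 libraries and 44 with all 29 libraries in 1 fit. Mutant against control LT-HSC gave 10 without a filter, 398 with the title block, 2 without the 5 libraries and 75 in the joint fit; MPP4 gave 1 without a filter; MPP3 gave 0 not robust and 0 with the prefix term. The average gave 1 without a filter, 19 with the title block, 1 with the prefix term, 0 without the 5 libraries and 0 with voom, and the effect between populations 23 with the title block and 1 without the 5 libraries. With the description number as a block, control MPP3 against ST-HSC gave 181. With the prefix term control MPP4 against MPP3 gave 263, and without the 5 libraries control MPP4 against LT-HSC gave 124, MPP3 against ST-HSC 454 and MPP4 against ST-HSC 395. The joint fit called 1422 genes for any difference in mutant libraries.

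Members called under DESeq2 were 1 for any difference in control (H2-Ab1) and 2 in mutant libraries (H2-Ab1 and Cd74), 1 in control MPP4 against LT-HSC (H2-Ab1), 1 in control MPP3 against ST-HSC (Nlrc5), 2 in mutant MPP3 against LT-HSC and 2 against ST-HSC, and 1 each in mutant MPP4 against LT-HSC (H2-Ab1), ST-HSC (Cd74) and MPP3 (Cd74). The replicate block on the description number gave the same 1 and 2 for any difference, 1 in control MPP4 against LT-HSC, 2 and 2 in mutant MPP3, and 1 (H2-Ab1) in mutant MPP4 against LT-HSC and 1 against ST-HSC. The replicate block on the title number gave 1 in mutant MPP4 against ST-HSC (Cd74) and 2 between genotypes in LT-HSC (H2-Aa -1.16 and Cd74 -1.75). The prefix term gave 1 in control MPP3 against ST-HSC (Nlrc5), 2 for any difference in mutant libraries, 2 and 2 in mutant MPP3 and 1 in mutant MPP4 against LT-HSC; without the 5 libraries it was 1 in control MPP3 against ST-HSC (Nlrc5).

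Mutant minus control values that changed sign without the 5 libraries were, in LT-HSC, H2-D1 0.24, H2-Aa 0.32, H2-Ab1 0.37, Cd74 0.81 and Ciita 0.23, in ST-HSC H2-Aa 0.30 and H2-Ab1 0.20, and on average H2-Ab1 0.11 and Ciita 0.36. With the title block they were H2-D1 0.028 and Cd74 -0.16 in MPP3 and H2-D1 -0.0094 on average. With the prefix term they were H2-D1 0.035 and Cd74 -0.038 in MPP3, and H2-D1 -0.010 and Ciita 0.16 on average; with voom H2-D1 was -0.0098 and Ciita 0.019 on average.

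With 1 library left out in turn, genes called ran from 527 to 1065 for any difference in control libraries. In the order of pairs above they ran from 1 to 217, 63 to 257, 367 to 741, 57 to 401, 115 to 334 and 78 to 257 in control, and from 9 to 57, 181 to 604, 182 to 429, 413 to 654, 229 to 502 and 120 to 259 in mutant libraries. Between genotypes they ran from 0 to 384 in LT-HSC, 0 to 1 in MPP3, 0 to 90 on average and 0 to 43 for the effect between populations. Members called ran from 0 to 1 in control MPP3 against ST-HSC and in mutant MPP4 against LT-HSC and ST-HSC, 1 to 2 for any difference in mutant libraries (H2-Ab1 without mutant ST-HSC replicate 3 or MPP4 replicate 2) and 0 to 2 between genotypes in LT-HSC. Values that crossed 0 ran, in LT-HSC, from -0.038 to 0.24 for H2-K1, -0.27 to 0.13 for H2-D1, -0.084 to 0.18 for B2m, -0.24 to 0.24 for Tap1 and -0.031 to 0.26 for Nlrc5. In ST-HSC they ran from -1.31 to 0.19 for H2-Aa and -0.25 to 0.080 for Nlrc5, and in MPP3 from -0.21 to 0.17 for H2-D1 and -0.24 to 0.36 for Cd74. In MPP4 they ran from -0.17 to 0.11 for H2-K1, -0.27 to 0.10 for H2-D1, -0.23 to 0.042 for B2m, -0.27 to 0.12 for Tap1, -0.19 to 0.0048 for Nlrc5 and -0.31 to 1.17 for Ciita, and on average from -0.053 to 0.059 for H2-D1 and -0.39 to 0.21 for Ciita. Depth limits Ciita, whose counts ran from 0 to 157, more than the other members.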
